A study of Mus musculus with 285 samples.

Results

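The 71 mice with the highest and the 71 mice with the lowest muscle level of Per2, a gene of the circadian clock, were compared for every other gene on the array. The mice were chosen by the deposited value of Per2, which 1 probe measured, out of all 285 mice of the series. The top 25% and the bottom 25% formed the groups, and the remaining 143 mice entered neither. Arntl, the clock gene whose rhythm runs opposite to that of Per2, was lower in the top group, with a difference of -0.68 (log2, top minus bottom). Dbp, a clock-driven transcription factor gene, was higher by 0.28, and Per1 by 0.53. Per2 also ran along the number that the labels give each mouse. The main results are therefore given a second time for groups ranked among mice of neighbouring numbers, where the difference of Arntl was again -0.68 and that of Dbp 0.36. Sik1, a kinase gene with one of the largest differences over all mice at 1.49, had -0.05 there.

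All mice of both groups were F2 animals, of both sexes, bred by intercrossing F1 mice from parents of the inbred lines C57BL/6J and C3H/HeJ. Their food was chow (4% fat) up to week 8 of life, then 12 weeks of Western diet (42% fat, 0.15% cholesterol). They were killed at 20 weeks after 12 hours without food, and muscle was frozen. RNA of each mouse, labelled with Cy3, was hybridised against a common pool of RNA from all mice, labelled with Cy5. The labels do not give the sex, genotype, hour of death or muscle of single mice, so the groups rest on Per2 alone. Each mouse is a separate animal, and the number of arrays limits the precision. Values below are log2 ratios of mouse over pool, so 0 is the level of the pool. A ratio does not show the absolute level of a gene, and whether markers of muscle or of another cell type were abundant cannot be read from it. The labels state neither the base nor the sign of the deposited log ratios, which were read as log10 of mouse over pool. In base 2 every log2 value below would shrink by the same factor. With the sign turned the groups would swap as well, which leaves each difference of top minus bottom as it is.

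The circadian clock is a feedback loop of transcription that runs in nearly every cell, muscle fibres included. The proteins ARNTL (also called BMAL1) and CLOCK bind E-boxes and switch on the Per and Cry genes, whose proteins then block them. The same pair drives Dbp, Tef and the nuclear receptor genes Nr1d1 and Nr1d2, and NR1D1 and NR1D2 repress Arntl. Transcripts of the Per genes and of Arntl thus peak at opposite times of day. Glucocorticoids, feeding and body temperature can shift Per expression too, so a high Per2 level alone does not give the hour.

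Per2 itself, which chose the mice, spanned 0.99 to 2.18 in the top group with a median of 1.35. In the bottom group it spanned -2.10 to -0.47 with a median of -1.02, and in the remaining mice -0.46 to 0.97 with a median of 0.39. The groups met the middle without a gap. The lowest top mouse had 0.988 and the highest middle mouse 0.97, while the highest bottom mouse had -0.469 and the lowest middle mouse -0.463. The groups are thus the ends of a continuous spread and not separate classes of mice.

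The groups were not spread evenly over the mouse numbers, which run from 51 to 362. Of the top group, 61 mice had numbers above the median number and 10 did not. Of the bottom group, 5 had numbers above the median number and 66 did not. The median number was 287 in the top and 107 in the bottom group. In runs of 20 numbers, the median of Per2 was -1.0 in mice 51 to 70 and -0.77 in mice 111 to 130. It was 0.77 in mice 191 to 210, -0.2 in mice 211 to 230 and 1.4 in mice 291 to 310. Only 4 of the 16 runs held mice of both groups, 17 top and 12 bottom mice in all. The labels do not say what the number records, so in this comparison Per2 and whatever runs along the number largely cannot be told apart.

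**Figure D1:**
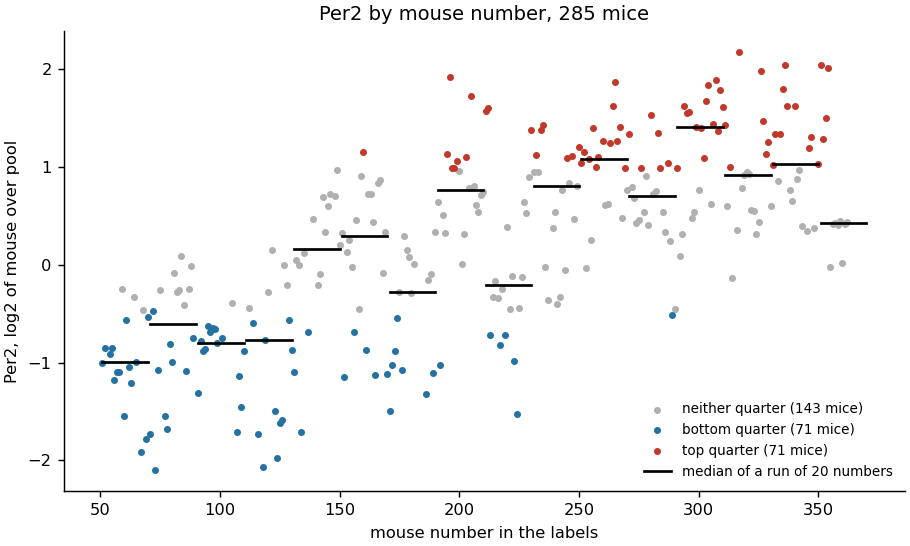
Per2 in each of the 285 mice (log2 of mouse over pool, vertical axis) against the mouse number in the labels (horizontal axis), with red points for the top group, blue for the bottom group, grey for the rest and black lines for the median of each run of 20 numbers. Of 71 top mice 61 have numbers above the median number, and of 71 bottom mice 66 do not.

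A second ranking was therefore added after the data had been seen. Within each run of 20 numbers the highest 25% and the lowest 25% by Per2 were taken, 66 mice each over the 16 runs, and the run was kept as a term in the fit. These are called the groups within runs. Of them, 38 top mice and 33 bottom mice were also in the same group over all mice, so both rankings share animals and their results are not independent of each other. Per2 spanned -0.65 to 2.18 with a median of 1.13 in the top and -2.10 to 0.66 with a median of -0.48 in the bottom group within runs.

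Between the groups over all mice, 62.4% of the 21511 genes and unnamed probes tested differed (limma, adjusted p under 0.05), 24.7% higher and 37.7% lower in the top group. A difference of at least 0.3 on the log2 scale as well was found for 11.4%, 7.46% higher and 3.92% lower. Within runs 42.1% differed, 18.5% higher and 23.6% lower, but only 1.59% by at least 0.3, of which 1.03% higher and 0.563% lower. With so many features past the test, passing it says little by itself, and the size of a difference and the place of a gene in the order carry more. The first array-wide component of expression moved with the groups too. Its median was -0.0493 in the top and 0.0438 in the bottom group over all mice, against -0.0207 and 0.00881 within runs, and its part in the results was not tested beyond the fits that take it as a covariate. Counts with these covariates are given with the other alternatives at the end.

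The 143 mice in neither group were not used in the comparison and gave a check on other animals. In them 2171 features had a slope on Per2 past the threshold (limma, adjusted p under 0.05), which is 10.1% of those tested, 4.76% rising and 5.34% falling with Per2. Of these 2171, 2003 had also differed between the groups in the same direction, which is 92.3% of them and 14.9% of the 13419 features called between the groups. Only 2 had differed the other way. The numbers run along Per2 in these mice as well, and with a smooth curve of the mouse number in the fit 112 features rose and 76 fell with Per2.

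The Per arm, as listed here, holds repressors of the clock and clock-driven factor genes such as Dbp. In it 9 genes other than Per2 were measured. Between the groups over all mice 6 were higher, 1 was lower and 2 did not pass, against 62.4% of all features passing in either direction. Within runs 5 were higher, none was lower and 4 did not pass, against 42.1% of all features. Their median difference was 0.12 over all mice and 0.14 within runs, while the median of all features was -0.03 and -0.01.

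Per1, the closest relative of Per2 and a repressor in the same complex, spanned -0.29 to 1.07 with a median of 0.41 in the top group. Bottom mice lay between -0.59 and 0.34, with a median of -0.16. Of the 71 top mice 41 lay above every bottom mouse. The difference was 0.53 ± 0.040 (SE; limma, adjusted p = 4.34e-24), a ratio of 1.44-fold. Within runs the groups overlapped nearly whole, with medians of 0.20 and 0.08, and the difference was 0.17 (adjusted p = 3.31e-04). In the 143 other mice Per1 rose with Per2, with a slope of 0.22 (adjusted p = 0.0027).

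Dbp, which encodes a PAR-domain transcription factor that ARNTL and CLOCK drive directly, spanned -0.29 to 0.79 with a median of 0.03 in the top group. In the bottom group it spanned -0.48 to 0.42 with a median of -0.21. The groups overlapped, but 65 of 71 top mice lay above the bottom median and 10 above every bottom mouse. The difference was 0.28 ± 0.037 (SE; limma, adjusted p = 3.49e-11). Within runs it was larger, 0.36 ± 0.032 (SE; limma, adjusted p = 1.55e-16), which gave Dbp the highest moderated t of the 11621 named genes. There the medians were 0.11 and -0.22, and 63 of 66 top mice lay above the bottom median. In the 143 other mice Dbp had a slope on Per2 of 0.05 that did not pass (adjusted p = 0.576).

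Tef and Hlf encode the other PAR-domain factors. Tef had differences of 0.00 over all mice and 0.01 within runs, neither past the test, and Hlf was higher by 0.20 over all mice (limma, adjusted p = 0.0126) but had 0.17 within runs (adjusted p = 0.0723). Per3 was slightly lower in the top group, with a difference of -0.05 (adjusted p = 0.00241), and had -0.03 within runs (adjusted p = 0.138). With the first array-wide component as a covariate Per3 turned to 0.06. Nr1d1, the repressor of Arntl, had -0.06 and 0.03 and passed in neither ranking, while its relative Nr1d2 was higher by 0.09 and 0.12 (adjusted p = 0.0439 and 0.00364). Bhlhe40 and Bhlhe41 encode repressors that compete for E-boxes. Bhlhe40 was higher by 0.32 over all mice and 0.25 within runs, and Bhlhe41 by 0.12 and 0.14, and all 4 values passed. With runs as a block Bhlhe40 had 0.28 and did not pass (adjusted p = 0.354). Probes are not calibrated against each other, so any order of genes by size of difference is one of measured ratios only.

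The E-box was looked for in the promoters of clock genes and of leading genes of the comparison, because it is the element through which the ARNTL and CLOCK proteins act. The windows are the 250 bases before each annotated transcript start, from RefSeq on build GRCm38.p6, for 21 genes, all of which but Bhlhe40 had a window. The letters CACGTG, which read alike on both strands, lay in a window of 7 of these genes, and in 6.02% of all 32851 windows. The D-box letters TTANGTAA, searched on both strands, lay in a window of 2 of them and in 2.06% of all windows. These runs of letters cannot overlap CACGTG. A gene can have several windows and the genes were chosen, so the counts per gene and the shares per window are unlike measures. The windows of Dbp, Usp2, Arntl, Nrip1 and Hivep2 held neither run of letters, which says only that these letters are not in these windows. The matches below are shown for every searched gene that had any, with 20 bases on either side where the window has them, 5′ to 3′ on the strand of the gene. Capitals mark the matched letters.
Per1: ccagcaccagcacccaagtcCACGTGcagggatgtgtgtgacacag
Bhlhe41: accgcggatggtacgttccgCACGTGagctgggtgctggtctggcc
Tef: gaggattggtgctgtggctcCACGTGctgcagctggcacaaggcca
Cry1: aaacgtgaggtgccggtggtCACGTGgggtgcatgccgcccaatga
Cipc: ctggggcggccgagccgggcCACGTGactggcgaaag
Coq10b: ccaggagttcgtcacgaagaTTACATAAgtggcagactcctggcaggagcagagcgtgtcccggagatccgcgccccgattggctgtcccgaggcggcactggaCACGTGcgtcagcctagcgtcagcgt
Rev1: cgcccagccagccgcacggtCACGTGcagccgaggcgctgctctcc
Per3: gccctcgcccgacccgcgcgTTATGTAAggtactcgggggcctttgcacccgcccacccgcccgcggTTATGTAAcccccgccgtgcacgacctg

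The Per1 stretch lies at chr11:69098763-69098808 on the plus strand, with the E-box starting 166 bases before the transcript start. The Bhlhe41 stretch lies at chr6:145865548-145865593 on the minus strand (153 bases before the start) and that of Tef at chr15:81802526-81802571 on the plus strand (127 bases). Cry1 has its match at chr10:85185089-85185134 on the minus strand, 60 bases before the start, and Cipc at chr12:86947306-86947342 on the plus strand, 17 bases before it. The Coq10b stretch, chr1:55052588-55052717 on the plus strand, holds a D-box match 162 bases and an E-box match 78 bases before the start. Rev1 lies at chr1:38129846-38129891 on the minus strand with the match 205 bases before the start. In Per3, at chr4:151044796-151044890 on the minus strand, D-box matches start 205 and 158 bases before the start and no E-box was found. Genes with a match did not share a response. Per1, Bhlhe41, Cry1, Cipc, Coq10b and Rev1 were higher in the top group in both rankings, Tef did not pass in either, and Per3 was lower over all mice. Of searched genes without a match, Dbp, Usp2, Nrip1, Hivep2, Noct and Nr1d2 were higher in both rankings too. Arntl, Nfil3 and Npas2 were lower in both, and Hlf, Clock and Nr1d1 did not pass in both. Of all features 24.7% were higher over all mice and 18.5% within runs. Leading genes were searched because they differed, so a link of match and difference was not tested.

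The Arntl arm, as listed here, holds Arntl and its partners and also the repressor genes Cry1 and Nfil3. In it 5 genes were measured. Over all mice 1 was higher, 3 were lower and 1 did not pass, against 62.4% of all features passing. Within runs 2 were higher and 3 lower, against 42.1% of all features passing.

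Arntl, the activator that heads the loop, spanned -1.60 to 0.39 with a median of -0.37 in the top group. Bottom mice lay between -0.83 and 1.05, with a median of 0.18. Of the 71 top mice 69 lay below the bottom median and 13 below every bottom mouse. The difference was -0.68 ± 0.074 (SE; limma, adjusted p = 6.85e-15), which is 1.60-fold lower in the top group. Within runs it was -0.68 ± 0.065 (SE; limma, adjusted p = 7.03e-15), with medians of -0.42 and 0.21, and Arntl had the second lowest moderated t of all named genes. In the 143 other mice Arntl fell with Per2, with a slope of -0.32 (adjusted p = 0.00188). The 143 mice are outside the groups over all mice only, and 58 of them are in the groups within runs.

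Nfil3, the repressor that competes with Dbp for D-boxes, spanned -0.95 to 0.64 with a median of -0.19 in the top and -1.49 to 1.16 with a median of 0.05 in the bottom group. It was lower, with -0.22 over all mice (limma, adjusted p = 0.00952). Within runs the medians were -0.20 and 0.21, 59 of 66 top mice lay below the bottom median, and the difference was -0.42 ± 0.068 (SE; limma, adjusted p = 1.04e-06). Npas2, a relative of Clock that can replace it as the partner of ARNTL, was lower, with -0.12 and -0.05. Clock itself, whose transcript is known to cycle weakly, had a difference of 0.02 that did not pass over all mice and was higher by 0.08 within runs (adjusted p = 0.003). Cry1, a repressor whose transcript is known to peak late in the cycle, was higher by 0.13 and 0.16. It did not pass with runs as a block (0.24, limma, adjusted p = 0.0687) or with 5 components as covariates (0.06 over all mice and within runs, adjusted p = 0.429 and 0.233).

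**Figure D2:**
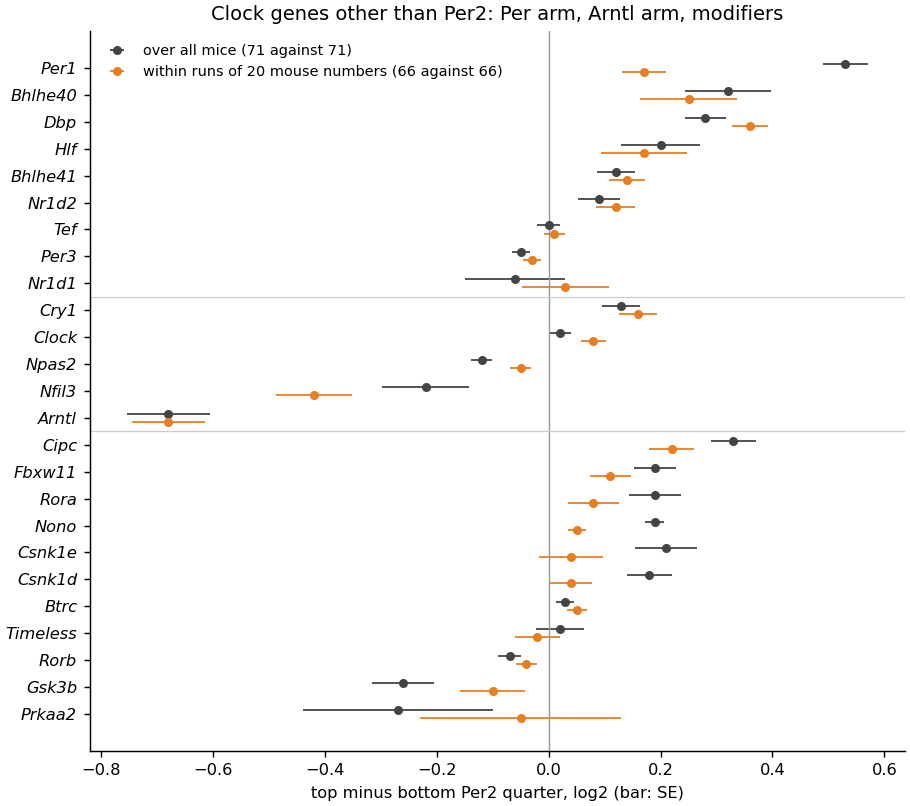
Difference between the top and the bottom Per2 group (log2, horizontal axis, bars are 1 SE) for 25 clock genes other than Per2, in black over all mice and in orange within runs of 20 mouse numbers. Grey lines part the Per arm, the Arntl arm and the modifiers. Arntl lies at -0.68 in both rankings, Dbp at 0.28 and 0.36, and Per1 at 0.53 and 0.17.

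Dbp and Arntl, the markers named with this comparison, were also set against each other over all 285 mice, without Per2. They ran opposite, with a Pearson r of -0.724 and a Spearman rho of -0.711 (permutation p = 1e-05 for both, the smallest that 100000 permutations can give, and 4.00e-05 adjusted over 8 pairs of clock genes). When the 2 mice with the most outlying Dbp were left out, r was -0.71. With a curve of the mouse number removed from both genes it was -0.766, at least as strong as without it. Dbp also rose with Nr1d2 (r = 0.425, rho = 0.479, permutation p = 1e-05 for both, adjusted 4.00e-05, and 0.455 without 2 mice) and weakly with Per3 (r = 0.231, rho = 0.234, permutation p = 1.20e-04 and 8.00e-05, adjusted 2.40e-04 and 2.13e-04). It showed no detectable relation with Per1 (r = 0.0725, rho = 0.087, permutation p = 0.223 and 0.144). The relation of Dbp with Tef (r = 0.153, rho = 0.167, permutation p = 0.00991 and 0.00489) was lost with the curve of the mouse number removed, at r = 0.0814 and rho = 0.104 (permutation p = 0.171 and 0.0801). Arntl had r of 0.142 with Npas2, 0.276 with Nr1d1 and -0.158 with Per3, with rho of 0.143, 0.171 and -0.165 (permutation p of r 0.0167, 2.00e-05 and 0.00764, of rho 0.0158, 0.00341 and 0.00517, adjusted 0.0191, 5.33e-05 and 0.0122 for r and 0.018, 0.00682 and 0.00689 for rho). Without the 2 most outlying mice, r of Dbp was 0.217 with Per3, 0.0637 with Per1 and 0.171 with Tef, and r of Arntl was 0.13 with Npas2, 0.22 with Nr1d1 and -0.146 with Per3. With the curve removed Arntl had r = 0.172 and rho = 0.097 with Nr1d1 (permutation p = 0.00334 and 0.103).

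**Figure D3:**
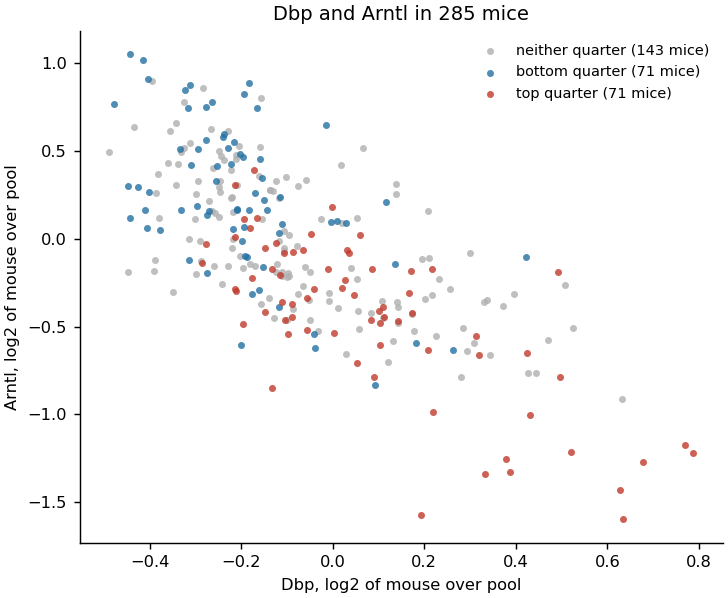
Arntl (vertical axis) against Dbp (horizontal axis), both as log2 of mouse over pool, in 285 mice, with red points for the top, blue for the bottom Per2 group and grey for the rest. Mice with high Dbp had low Arntl (r = -0.724), and red points reach the lower right, where Arntl falls to -1.60 and Dbp rises to 0.79.

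With the runs of mouse numbers as a block, the same groups over all mice could be compared only where a run held both, and 16.0% of all features passed. There Dbp was higher by 0.55 ± 0.085 and Arntl lower, with -0.90 ± 0.18 (SE; limma, adjusted p = 8.52e-06 and 0.00113). Per1 was higher by 0.35 and the output gene Usp2 by 1.07 (adjusted p = 0.0142 and 4.48e-07), while Nfil3 had -0.42 and did not pass (adjusted p = 0.138). With 5 array-wide components as covariates the differences of Dbp and Arntl over all mice were larger, at 0.70 and -1.36, and within runs they were 0.43 and -0.87. The opposite movement of these 2 genes with Per2 was thus present in every one of these fits, at sizes that moved by more than 1.5 times with the fit.

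Among 11 measured modifiers of the clock, kinases, ubiquitin ligase parts and nuclear receptors that tune the loop, 6 were higher, 2 lower and 3 did not pass over all mice, where 62.4% of all features passed. Within runs 4 were higher, none was lower and 7 did not pass, where 42.1% of all features passed. Cipc, an inhibitor of CLOCK, was higher by 0.33 over all mice and by 0.22 within runs (limma, adjusted p = 8.91e-13 and 1.11e-05). With runs as a block it had 0.19 and with 5 components -0.00 over all mice, and passed in neither (adjusted p = 0.202 and 0.965). The casein kinase genes Csnk1d and Csnk1e, whose products mark PER proteins for breakdown, were higher by 0.18 and 0.21 over all mice but had 0.04 each within runs (adjusted p = 0.406 and 0.627). Rora, an activator of Arntl, was higher by 0.19 and had 0.08 within runs (adjusted p = 0.174), and the kinase gene Gsk3b was lower, with -0.26, and had -0.10 (adjusted p = 0.169).

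Of 20 measured output genes of the clock in muscle and liver, 7 were higher, 7 lower and 6 did not pass over all mice, where 62.4% of all features passed. Within runs 3 were higher, 8 lower and 9 did not pass, where 42.1% of all features passed. The median difference was 0.04 and -0.05. Nampt was higher by 0.33 over all mice and had 0.02 within runs, which did not pass (limma, adjusted p = 0.771). Myod1 was lower past the test by at least 0.3 over all mice, and did not meet both limits within runs.

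Usp2, a ubiquitin peptidase gene known as a direct clock output, spanned -0.11 to 1.44 with a median of 0.60 in the top group. In the bottom group it spanned -1.41 to 0.39 with a median of -0.57. Of the 71 top mice 55 lay above every bottom mouse. The difference was 1.17 ± 0.053 (SE; limma, adjusted p = 8.43e-44), a ratio of 2.25-fold. Within runs it was 0.59 ± 0.054 (SE; limma, adjusted p = 1.39e-15), the second highest moderated t of the named genes after Dbp. In the 143 other mice Usp2 rose with Per2, with a slope of 0.37 (adjusted p = 1.08e-09).

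Coq10b, which encodes a coenzyme Q binding protein of mitochondria, was higher by 0.80 over all mice and by 0.41 within runs (limma, adjusted p = 2.20e-30 and 1.22e-09). Of the 71 top mice 46 lay above every bottom mouse. Noct, or nocturnin, which acts in RNA and nucleotide breakdown and is known to cycle, was named after its values were seen. It was higher by 1.03 and 0.36 (adjusted p = 2.32e-26 and 7.65e-05). Pdk4, the kinase that shuts pyruvate out of the mitochondrion in fasting, was lower, with -0.25 over all mice and -0.37 within runs (adjusted p = 3.29e-06 and 5.79e-10). Pfkfb3, a regulator of glycolysis, was lower, with -0.43 and -0.40, and the insulin-responsive glucose transporter gene Slc2a4 with -0.19 and -0.27. With the first component as a covariate Slc2a4 turned to 0.17. The cell cycle inhibitor gene Cdkn1a had 0.16 over all mice, which did not pass, and was lower, with -0.53 within runs (adjusted p = 1.70e-05).

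**Figure D4:**
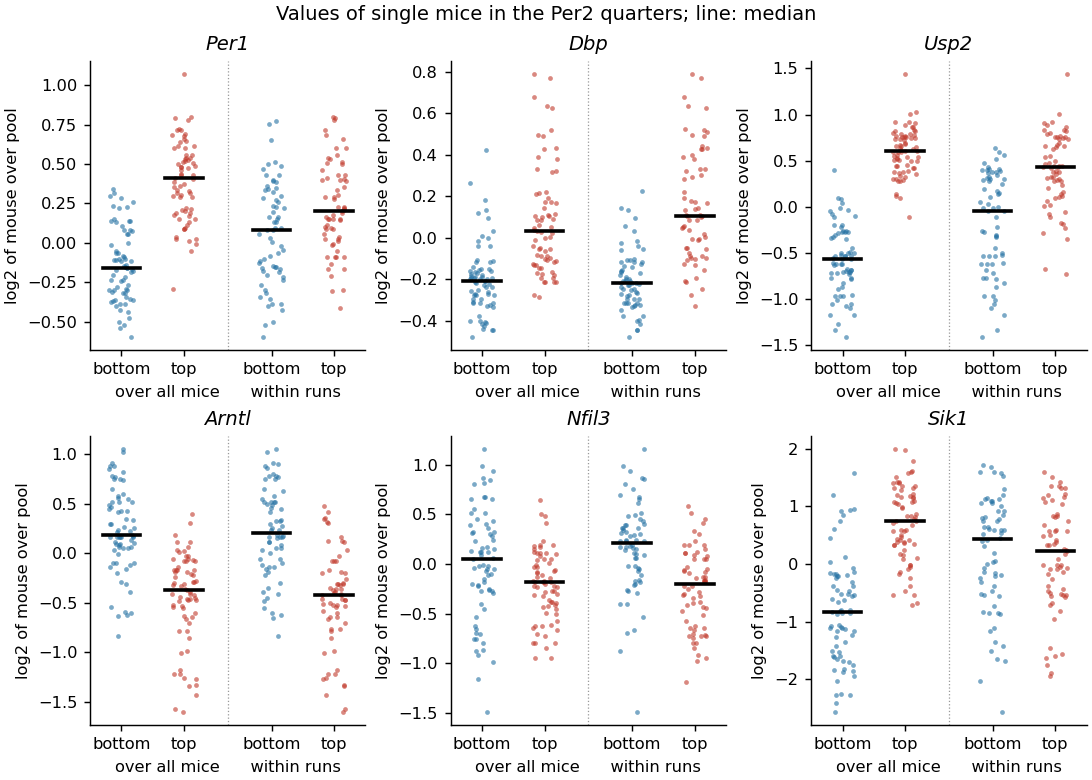
Log2 ratio of mouse over pool (vertical axis) of 6 genes in each mouse, for the bottom (blue) and top (red) Per2 group over all mice (71 each, left of the dotted line) and within runs of mouse numbers (66 each, right of it), where black lines are medians. Within runs the medians of Dbp, Arntl, Usp2 and Nfil3 stay apart, though the groups overlap, and those of Per1 lie close together. The medians of Sik1, -0.83 and 0.75 over all mice, are 0.43 and 0.23 within runs.

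Genes were also ordered by moderated t over all mice, among those whose slope on Per2 had the same sign in the 143 other mice. The 15 highest and the 15 lowest held no core clock gene. Nrip1, a corepressor of nuclear receptors that restrains oxidative genes in muscle and fat, spanned 0.17 to 1.44 with a median of 0.78 in the top group. Bottom mice lay between -1.10 and 0.32, with a median of -0.40. The groups hardly overlapped, and 67 of 71 top mice lay above every bottom mouse. The difference was 1.11 ± 0.050 (SE; limma, adjusted p = 5.05e-44), and 0.41 ± 0.045 within runs (adjusted p = 8.86e-12).

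Usp54, of the ubiquitin peptidase family, was higher by 1.21 over all mice and by 0.38 within runs. Hivep2, a zinc finger factor gene, was higher by 0.95 and 0.48, with 64 of 71 top mice above every bottom mouse. Ankrd16 was higher by 0.55 and 0.29, and Eef2k, the kinase that slows peptide elongation, by 0.45 and 0.25. Ubr1, a ubiquitin ligase of the N-degron pathway, was higher by 0.69 and 0.34, the splicing kinase gene Clk1 by 0.75 and 0.22 and Fam214a by 0.95 and 0.43. The remaining members of the 15 with the highest t were Usp2, Coq10b, Acer2, Snrk, RNF125, Sbf2 and Rbm12. Each of the 15 was past the threshold within runs except RNF125, which had 0.13 (limma, adjusted p = 0.0699).

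Of the 15 genes with the lowest moderated t, Six4 led. It encodes a homeobox factor of muscle development and spanned -1.39 to -0.02 with a median of -0.74 in the top group. In the bottom group it spanned -0.48 to 0.81 with a median of 0.23, and 53 of 71 top mice lay below every bottom mouse. The difference was -0.88 ± 0.048 (SE; limma, adjusted p = 1.76e-35), and -0.24 ± 0.046 within runs (adjusted p = 2.56e-05). Tnfrsf19, a receptor of the TNF family, was lower, with -1.03 and -0.46. FAM110B was lower, with -0.40 and -0.30, and had the lowest moderated t of all named genes within runs, where 64 of 66 top mice lay below the bottom median. Derl2, which serves the export of misfolded proteins from the endoplasmic reticulum, was lower, with -0.45 and -0.12, the Hsp90 partner gene Cdc37 with -0.36 and -0.12, and the mitochondrial genes Mrpl40 and Timm10b with -0.45 and -0.43 over all mice and -0.17 and -0.10 within runs. Tssc4, Lamtor4, Mydgf, Cfap20, Nit2, Acot8, Pinx1 and Spr made up the rest, with differences from -0.26 to -0.89 over all mice and from -0.08 to -0.22 within runs, all past the test.

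Several of the genes with the largest differences over all mice had small ones within runs. Slc10a6, a carrier of sulfated steroids, was higher by 1.51 ± 0.12 (SE; limma, adjusted p = 5.72e-22) and had 0.06 within runs (adjusted p = 0.667). Sik1, a salt-inducible kinase, spanned -0.72 to 1.99 in the top and -2.56 to 1.57 in the bottom group over all mice, with all 71 top mice above the bottom median. It was higher by 1.49 ± 0.13 (SE; limma, adjusted p = 2.52e-19) and had -0.05 within runs (adjusted p = 0.733), where 26 of 66 top mice lay above the bottom median. Map3k6, a stress-activated kinase, was higher by 1.18 and had 0.06 (adjusted p = 0.607). Acer2, a ceramidase gene, was higher by 1.65 and by 0.28, Slc7a8, an amino acid carrier, by 1.40 and by 0.27, and Foxo1, the transcription factor of the fasting response, by 1.13 and by 0.19, all past the test in both rankings. Among the lower genes Bak1, which promotes apoptosis, had -1.19 and -0.21 (adjusted p = 0.066 within runs), the transcription factor subunit gene Taf8 -1.17 and -0.22 (adjusted p = 0.0938), and Kdelr1, a receptor that retains proteins in the endoplasmic reticulum, -0.91 and -0.30 (adjusted p = 6.76e-04). Pigt, which attaches lipid anchors to proteins, was lower, with -0.93 and -0.52. With runs as a block Pigt had -0.46 and with 5 components over all mice 0.15, and passed in neither (limma, adjusted p = 0.195 and 0.203). The difference between the rankings was not tested, since they share animals.

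Some genes stood nearer the ends of the order by moderated t within runs than over all mice. They were named after their values were seen. Rev1, a DNA polymerase of damage bypass, had the third highest moderated t within runs, with a difference of 0.30 ± 0.029 (SE; limma, adjusted p = 4.67e-14) against 0.35 over all mice. Its groups had medians of 0.19 and -0.11, and 62 of 66 top mice lay above the bottom median. Stard3, a cholesterol carrier of late endosomes, was higher by 0.30 (adjusted p = 1.91e-12) and by 0.38 over all mice. Hey1 and Dll4, a target and a ligand of the Notch pathway, were higher by 0.53 and 0.52 within runs and by 0.72 and 0.82 over all mice, and Tenm3 by 0.44 and 0.61. Axl, a receptor tyrosine kinase, had the third lowest t within runs at -0.21 (adjusted p = 1.13e-11), and -0.25 over all mice. Pank1, the first enzyme of coenzyme A synthesis, was lower, with -0.50 within runs and -0.30 over all mice, and the Z-disc protein gene Myot with -0.28 within runs and -0.10 over all mice (adjusted p = 1.47e-07 and 0.0499). With the first component as a covariate over all mice Myot turned to 0.23.

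Targets of glucocorticoids, hormones that raise Per1 and Per2 directly and peak once a day, were higher over all mice in 10 and lower in 3 of 17 measured genes, against 24.7% of all features higher and 37.7% lower, with a median of 0.21. Sgk1, a kinase that regulates ion channels, was higher by 1.04, Fkbp5, the cochaperone that damps the glucocorticoid receptor, by 0.91, and Klf15 and Klf9 by 0.25 each. Within runs 4 were higher and 5 lower, against 18.5% and 23.6% of all features, with a median of 0.01. There Klf15 was higher by 0.06, Klf9 by 0.10, Sgk1 by 0.36 and Fkbp5 by 0.22 (limma, adjusted p = 0.0288, 0.0104, 3.89e-04 and 0.0166), while Angptl4, an inhibitor of lipoprotein lipase, was lower, with -0.44, and so was Tsc22d3, a classical target, with -0.16 (adjusted p = 8.46e-06 and 0.00286). Tsc22d3 had 0.03 over all mice, which did not pass. With runs as a block Sgk1 had 0.44, Fkbp5 0.22 and Klf15 -0.01 and none passed (adjusted p = 0.127, 0.471 and 0.933). Within runs with 5 components Sgk1 had 0.17 and Fkbp5 -0.06, and neither passed (adjusted p = 0.0837 and 0.531). Genes of the FoxO and fasting response were higher in 4 and lower in 1 of 15 over all mice, and higher in 3 and lower in 3 within runs. Of the insulin and IGF signalling genes 5 of 14 were higher and 7 lower over all mice, and 3 were higher and 4 lower within runs. For both lists the same shares of all features apply. Igfbp5, a binding protein of IGF, was higher by 0.34 and 0.35.

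Immediate early genes, transcribed quickly after stress or handling, split by ranking. Over all mice 8 of 20 were higher and 4 lower, against 24.7% of all features higher and 37.7% lower, with Egr2 at 0.76, Myc at 0.65, Btg2 at 0.63, Atf3 at 0.44 and Egr1 at 0.42 past the test. Egr3 was the lowest of the list, with -0.28, and had -0.05 within runs, which did not pass (limma, adjusted p = 0.106). Within runs none was higher and 7 were lower, against 18.5% and 23.6% of all features, and Btg2 was lower, with -0.64 ± 0.13 (SE; limma, adjusted p = 2.98e-05), while Egr2 had 0.02, Myc 0.11, Egr1 -0.22 and Atf3 -0.18 and did not pass. Heat shock genes were higher in 5 and lower in 6 of 13 over all mice, and higher in 1 and lower in 7 within runs. Hspa1a, the inducible chaperone, was higher by 0.60 over all mice, its cochaperone genes Dnajb1 and Bag3 by 0.54 and 0.44, and within runs they had -0.16, 0.04 and 0.10 and did not pass (limma, adjusted p = 0.475, 0.774 and 0.265). With 5 components as covariates Bag3 turned to -0.26 over all mice and -0.18 within runs. The mitochondrial chaperonin gene Hspe1 was lower, with -0.43 and -0.30, the endoplasmic reticulum chaperone gene Hspa5 with -0.43 and -0.25, and Hspb1, a small heat shock protein gene, -0.35 in each ranking. With runs as a block Hspa5 had -0.14 and with 5 components over all mice -0.06, and passed in neither (limma, adjusted p = 0.524 and 0.534). Hspe1 had -0.38 and -0.23 in these fits and passed in both (adjusted p = 0.0396 and 0.0191). Of the cold-inducible genes, Rbm3 was higher by 0.40 and 0.22, and Cirbp had -0.03 and 0.08 and did not pass.

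More lipogenic genes were higher than lower in the top group in both rankings. Over all mice 8 of 13 measured genes were higher and none lower, against 24.7% of all features higher and 37.7% lower, with a median of 0.20. Within runs 5 were higher and 1 lower, against 18.5% and 23.6% of all features, with a median of 0.12. Markers of white fat cells went both ways. The samples are bulk tissue, so fewer cells of a type and less RNA per cell cannot be told apart. Over all mice 2 of 5 were higher and 1 lower, and within runs 3 were higher and 2 lower. Plin1, the coat protein of fat droplets, was higher by 0.59 and 0.39 and Slc7a10 by 0.46 and 0.29, all past the test. Lep was lower, with -0.07 and -0.13 (limma, adjusted p = 0.0473 and 6.45e-04). Fabp4 had -0.10 over all mice, which did not pass, and was lower within runs, with -0.24 (adjusted p = 0.133 and 2.33e-04). The mean level of this list spanned -0.35 to 0.74 in the top and -0.42 to 0.35 in the bottom group, and -0.65 to 0.72 and -0.41 to 0.74 within runs. Srebf1, the transcription factor that drives fatty acid synthesis, was higher by 0.50 over all mice and by 0.54 ± 0.095 within runs (SE; limma, adjusted p = 2.45e-06 and 5.10e-06). Its top and bottom medians were 0.29 and -0.29 over all mice and 0.38 and -0.36 within runs, and the groups overlapped in both rankings. Fatty acid synthase, Fasn, was higher by 0.63 and 0.38, and the desaturase genes Scd1 and Scd2 by 0.57 and 0.53 over all mice and by 0.30 and 0.41 within runs. With scores of 5 cell type lists as covariates, white fat cells included, Srebf1 had 0.64, Fasn 0.45, Scd1 0.43 and Scd2 0.66 over all mice, all past the test. With runs as a block Srebf1 had 0.88, and with 5 components over all mice 0.42, and passed in both (limma, adjusted p = 0.0156 and 0.0078). Fasn had 0.66 and 0.05 in these fits and Scd2 0.40 and 0.01. Neither gene passed in either fit (adjusted p = 0.13 and 0.909 for Fasn, 0.28 and 0.964 for Scd2). Pnpla3, a lipase-like gene known as a target of Srebf1, had -0.13, which did not pass, and was lower, with -0.34 within runs. Subunits of oxidative phosphorylation were lower in 4 of 6 measured genes over all mice and in 5 within runs, where 37.7% and 23.6% of all features were lower, and none was higher. Cox8b was lower, with -0.48 and -0.30, Cox5b with -0.28 and -0.29 and Cox4i1 with -0.29 and -0.23. With runs as a block these genes had -0.31, -0.21 and -0.22 and did not pass (limma, adjusted p = 0.136, 0.268 and 0.259). With 5 components over all mice they had -0.00, 0.04 and 0.03 and did not pass (adjusted p = 0.995, 0.686 and 0.787). With the first component as a covariate over all mice Cox5b turned to 0.13 and Cox4i1 to 0.12. Cox7a2, named after its values were seen and not in the list, was lower, with -0.55 and -0.39. Glycolytic genes were higher in 5 of 8 over all mice and in 4 within runs, by at most 0.27 and 0.17. Genes of fatty acid oxidation were higher in 6 and lower in 3 of 12 over all mice, and higher in 1 and lower in 4 within runs.

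**Figure D5:**
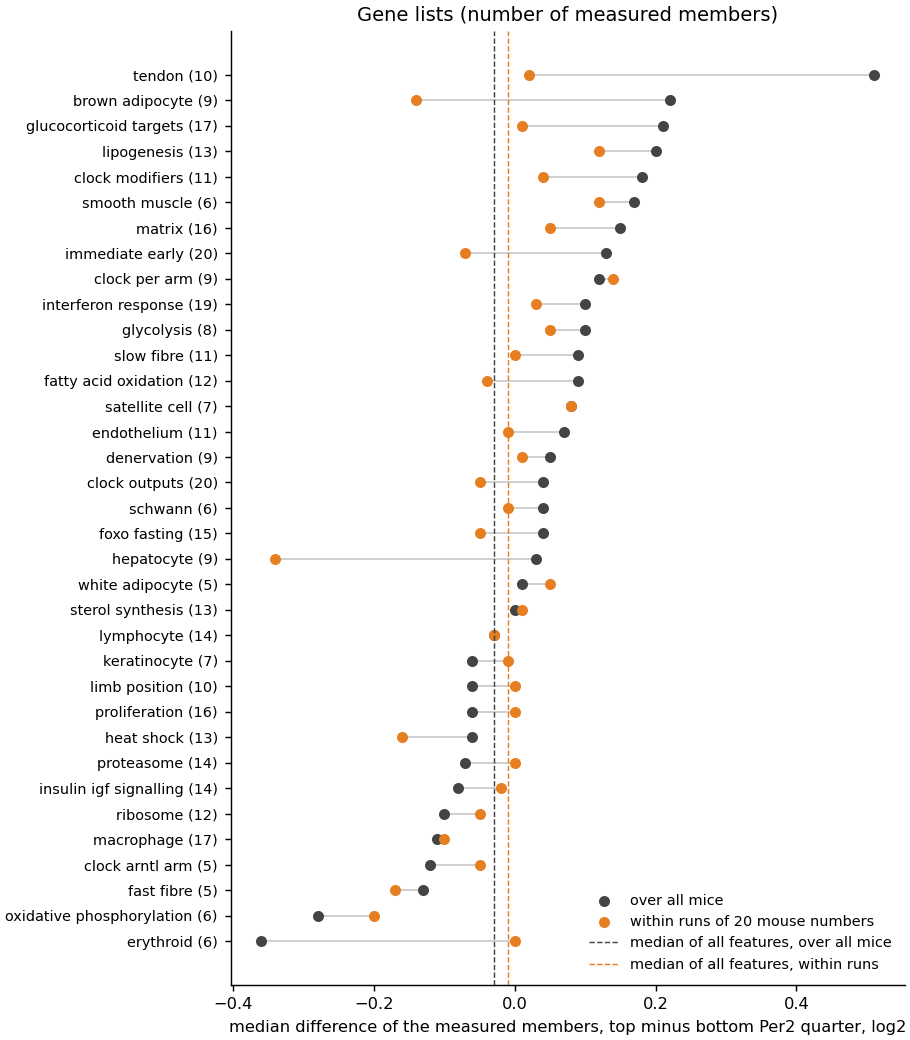
Median difference of the measured members of each gene list with more than 3 of them between the top and the bottom Per2 group (log2, horizontal axis), in black over all mice and in orange within runs of mouse numbers. Dashed lines give the medians of all features, -0.03 and -0.01. Tendon genes lie at 0.51 over all mice and 0.02 within runs, and erythroid genes at -0.36 and 0.00, while the Per arm lies at 0.12 and 0.14.

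Markers of other cell types were counted too, and not all of these lists stood apart from all features. The counts below stand against 24.7% of all features higher and 37.7% lower over all mice, and 18.5% and 23.6% within runs. Over all mice the lower macrophage genes and the higher slow fibre and hepatocyte genes lay near these shares. Within runs the endothelial genes and the lower slow fibre genes did. The lists are short and were not tested as sets, so a count away from the shares is a description only. Tendon genes were higher in 6 and lower in 1 of 10, with the proteoglycan genes Fmod and Kera at 0.86 and 0.72 and Chad at 0.81. Their mean level spanned -1.19 to 1.72 with a median of -0.01 in the top and -1.08 to 1.45 with a median of -0.51 in the bottom group. Within runs 1 was higher and 1 lower, Fmod, Kera and Chad had 0.18, 0.08 and 0.16 and did not pass, and the medians of the mean level were -0.30 and -0.49. Red cell genes were lower in 5 of 6 over all mice, with the globin genes Hbb-b1 and Hbb-b2 at -0.90 each, and in 2 within runs, where these globins had -0.02 and 0.01. Macrophage genes were lower in 7 and higher in 1 of 17 over all mice and lower in 6 within runs. The complement gene C1qa was lower, with -0.80 and -0.30, and the lysosomal marker Cd68 with -0.32 and -0.14. Endothelial genes were higher in 5 and lower in 3 of 11, and higher in 2 and lower in 2 within runs. Vwf, the clotting factor carrier, was higher by 0.55 and 0.31, and the receptor gene Tie1 was lower, with -0.57 over all mice, and had -0.17 within runs, which did not pass (limma, adjusted p = 0.0829). Of 9 hepatocyte genes 2 were higher and 1 lower over all mice, and 3 were lower within runs. Genes that rise on denervation were higher in 3 and lower in 2 of 9 over all mice, and higher in 1 and lower in 1 within runs. The myogenic factor gene Myog was lower, with -0.71 and -0.55, and Chrnb1, a subunit of the acetylcholine receptor, was higher by 0.44 and 0.24. Slow fibre genes were higher in 3 and lower in 3 of 11 over all mice and lower in 3 within runs, with medians of 0.09 and 0.00. The part of these cell types in the clock results was not tested beyond fits with scores of 5 of the lists as covariates, in which 5477 features were higher and 8187 lower against 5316 and 8103 without them. In those fits the difference of Dbp was 0.28, that of Per1 0.50, that of Usp2 1.18 and that of Arntl -0.61, all past the test.

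The difference between the groups was also compared between mice with numbers up to the median and above it (lower and higher numbers), on only 10 top mice among the lower numbers and 5 bottom mice among the higher numbers. The interaction passed for 11.8% of all features (limma, adjusted p under 0.05), 4.4% upwards and 7.37% downwards. The difference of Dbp was smaller among the higher numbers, with an interaction term of -0.56 (adjusted p = 1.56e-04), at 0.73 among the lower numbers and at 0.16 among the higher ones, where it did not pass (adjusted p = 0.12), and that of Nfil3 more negative, with a term of -0.99 (adjusted p = 0.00702). The term of Arntl, 0.43, did not pass (adjusted p = 0.213). Because these sets are so unequally filled, groups were also ranked anew within each set, an alternative added after the data had been seen. So ranked, Dbp was higher by 0.43 among the lower and by 0.27 among the higher numbers, and Arntl had -0.85 and -0.80, all past the test. Nfil3 had 0.02 among the lower numbers, which did not pass, and was lower among the higher numbers, with -0.47 (limma, adjusted p = 0.881 and 2.58e-05).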

How the data were processed

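Muscle RNA of 285 mice was measured on 2-colour arrays, 1 array per mouse. The deposited values are log ratios, taken here as log10 of mouse over pool, which the authors processed by steps not given in the sources used here. They are bounded at -2 and 2, or 6.64 on the log2 scale, and array medians lie between -0.0222 and 0.0173. Scale and direction are not stated by the labels. The pool holds an equal portion of each mouse's RNA, and the mean linear ratio of the Y-linked gene Eif2s3y was 0.796 as read and 23.2 with the sign turned. Of array pairs 2.48% correlated below -0.3, the lowest at -0.745. The difference of top minus bottom group is the same under both signs.

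Of 23560 probes, 23510 were kept because at least 80% of arrays gave them a value, and 0.0972% of all values were missing and left so. GEO's platform annotation gave 1 symbol to 13653 probes, several to 48 and none to 9859, and symbols were updated through RefSeq gene identifiers. Probes of a gene were averaged, which gave 11622 named genes with Per2 and 9890 unnamed probes. No arrays held identical values. Differences were fitted with limma 3.58.1 in R 4.3.3 (lmFit and eBayes), with p-values adjusted by Benjamini-Hochberg over the 21511 features other than Per2. The fit was tested on simulated data. Permutation tests were two-sided and run with numpy 2.4.6, with ranks and adjustment from scipy 1.17.1. Sex, litter and day are not in the fits, and p-values measure the spread between mice.

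Named genes were all measured clock genes, the 15 highest and the 15 lowest by moderated t and the 8 highest and 8 lowest by difference among genes whose slope in the middle mice had the same sign, up to 4 genes per other list by absolute t, and up to 5 by interaction, not all of which are printed. Other genes, further list members included, were named after their values were seen. The genes, lists and ranking were chosen with earlier results of these data known. Alternatives covered scaling, missing values, mouse number, components, cell type scores, group size and the limma setting.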

Additional observations from a re-analysis of the deposited data

Results flagged for a closer look

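The difference between the Per2 groups was tested for a change between mice with numbers up to the median and above it, called lower and higher numbers (limma, interaction term, adjusted p under 0.05), which rests on 10 top mice among the lower and 5 bottom mice among the higher numbers. Among the genes named above, these interaction terms, higher minus lower numbers on the log2 scale, passed. Of clock genes Dbp had -0.56, Nfil3 -0.99 and Per3 -0.18. Among genes with large differences over all mice Slc10a6 had -1.22, Acer2 -1.01, Map3k6 -0.96, Usp54 -0.57 and Eef2k 0.32. Of the lower genes Bak1 had -1.82, Taf8 -1.58, Kdelr1 -1.15 and Spr -0.83. Of the list genes Btg2 had -1.59, Myog -1.26, Sgk1 -1.09, Cirbp -0.64, Egr3 -0.48, Tie1 -1.24 and Cd68 -0.33. The term passed for 11.8% of all features.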

How the results depend on the processing

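Limits: the mouse number and Per2 moved together, and fits that hold the number fixed gave fewer calls. Over all mice 5316 features were higher and 8103 lower. Higher calls were 1328 with runs of numbers as a block, 1726 with a spline of the number, 3514 for groups of Per2 with the spline removed, 1219 in the lower numbers, 2856 among the higher numbers and 2010 with 5 components as covariates. Lower calls under these 6 settings were 2114, 2535, 4656, 891, 4624 and 1861, and 3789 with the first component. Under alternatives added after the data had been seen, lower calls were 5086 for groups within runs and 5062 without arrays of outlying spread. Within runs with 5 components 1413 were higher and 1178 lower, ranked within the lower numbers 3474 and 3830, and ranked within the higher numbers 1999 and 2424.

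By at least 0.3 log2, 1604 were higher and 844 lower. Higher calls were 793 (run block), 734 (spline), 198 (spline removed from Per2), 622 (lower numbers), 445 (first component), 265 (5 components), 2457 (groups of 10%), 221 (within runs), 232 (without outlying arrays), 40 (within runs with 5 components), 896 and 362 (ranked within the lower and the higher numbers) and 20 (values read as log2). Lower calls were 504 (run block), 453 (spline), 126 (spline removed from Per2), 424 and 1276 (lower and higher numbers), 551 (groups larger than 25%), 1570 (groups of 10%), 121 (within runs), 104 (without outlying arrays), 159 (within runs with 5 components), 457 and 212 (ranked within the lower and the higher numbers) and 7 (values read as log2).

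In the middle mice 1023 rose and 1148 fell with Per2, against 112 and 76 with the spline and 285 and 239 with 5 components. The interaction was positive for 947, and for 1677 with 5 components. The correlation of Dbp with Tef was 0.0814 with the spline. Signs turned for these genes. With the first component Per3 had 0.06, Cox4i1 0.12, Cox5b 0.13, Myot 0.23 and Slc2a4 0.17. With 5 components Per3 had 0.06, Cirbp 0.29, Bag3 -0.26 and Cdkn1a -0.61. With the spline Cdkn1a had -0.63 and Btg2 -0.85. With the spline removed from Per2, Cirbp had 0.12, Cdkn1a -0.52, Btg2 -0.40 and Tsc22d3 -0.11. In the lower numbers Cirbp had 0.46, and ranked within it Cirbp had 0.34 and Egr1 -0.50. Ranked within the higher numbers Cdkn1a had -0.66 and Btg2 -0.62. Within runs Cdkn1a had -0.53, Btg2 -0.64 and Tsc22d3 -0.16, without outlying arrays -0.54, -0.68 and -0.16, and with 5 components Cdkn1a -0.68, Btg2 -0.82 and Bag3 -0.18. The cause was not tested. Scaling or centring of arrays, missing values, the probe rule and the limma setting turned no sign among the 114 named genes. Of the 107 of these that passed over all mice, 61 lost the call with runs as a block, 43 with the spline, 40 with 5 components, 26 within runs and 56 within runs with 5 components. No paired analysis was possible because the labels give a single group.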
